A study of Mus musculus with 7 samples.

Results

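The complement members examined here were the 10 genes of the classical and alternative pathways that were named for this comparison: *C1qa*, *C1qb*, *C1qc*, *C1ra*, *C1s1*, *C2*, *C3*, *C4b*, *Cfb* and *Cfd*. They were taken by symbol from the 52740 genes of the deposited count table, and 9 of the 10 were among the 16990 genes with enough counts to be tested. *Cfd* was the member that did not pass that filter. None of the 9 members tested was differentially expressed between LC3b-/- and WT, and the 6 tested members outside C1q had higher mean levels in LC3b-/- while the 3 C1q chains had lower ones.

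The RNA came from retinal pigment epithelium (RPE) of mice labelled 24 months old. The WT group held 4 mice (females F1, F2 and F3 and male M1) of the strain C57BL6/J, and the LC3b-/- group held 3 mice (females F1 and F3 and male M) of a B6;129P2 stock that carries a germline disruption of *Map1lc3b*, the gene for the autophagy protein LC3B. Strain background and the targeted gene therefore cannot be told apart, and the same holds for the number that each mouse name carries before the sex, which never occurs in both genotypes. Eyecups without cornea, ciliary body and lens were treated with hyaluronidase, the neural retina was pulled away, and RPE sheets were shaken loose from the choroid after trypsin. Stranded libraries of polyadenylated RNA were made, 1 per mouse, so that p-values measure the spread between these mice.

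Complement is a cascade of plasma proteins that tags cells, microbes and debris for uptake by phagocytes. In the classical pathway C1q binds a target, its partner proteases C1r and C1s cut C4 and C2, and the fragments form an enzyme that cleaves C3. In the alternative pathway factor B joins a C3 fragment and is cut by factor D to form a second such enzyme. Outside the liver these proteins are also made locally, C1q mainly by macrophages and microglia, and in the eye the RPE and choroid are places where complement is studied in relation to age-related macular degeneration.

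*Map1lc3b* stood at 104 to 130 CPM in WT and at 6.76 to 8.33 CPM in LC3b-/- (counts relative to the library total, scaled by TMM factors), a log2 fold change of -3.98 (adjusted p = 1.86e-04, edgeR). The libraries summed to 24495952 to 35616134 counts, and 3 counts, taken as the floor, equalled 0.0752 to 0.124 CPM. Of the genes tested, 40 (0.235%) were differentially expressed, a call that took a fold change of 1.5 or more together with an adjusted p below 0.05. The RPE markers dominated the marker lists at a summed 31122 to 49071 CPM in WT and 13781 to 29213 CPM in LC3b-/-. In LC3b-/- 11 of 12 were lower, 7 of them at an unadjusted p below 0.05, which 24.1% of all genes tested reached in either direction. Markers of ocular surface epithelium went the other way, at 127 to 2718 CPM in WT and 3726 to 26367 CPM in LC3b-/-, with 12 of 12 higher. Neither list is made of complement genes, and the part of either in the levels below was not tested. In bulk RNA of this kind, fewer cells of a type and less RNA per cell cannot be told apart.

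Among the WT mice, 2 libraries stood apart for the complement members. WT F3 was the lowest of all 7 libraries for 8 of the 9 members tested, every one but *C2*. WT F1 was the highest WT library for the 6 tested members outside C1q. The differences below are therefore also given without each of these libraries. Values of single mice follow the order F1, F2, F3, M1 for WT and the order F1, F3, M for LC3b-/-.

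The genes for the 3 C1q chains, which assemble into the recognition molecule of the classical pathway, lie side by side on the minus strand of chromosome 4 (GRCm39): *C1qb* at chr4:136606009-136613511, *C1qc* at chr4:136616466-136620376 and *C1qa* at chr4:136623223-136626161. Each has 3 exons in its canonical transcript. The bases just upstream of *C1qb* and *C1qc* are shown because this pair had the highest correlation of any pair of members across the libraries. They run 5′ to 3′ toward the start of the canonical transcript and end at the base before it, from the reference genome, which is that of C57BL/6J. Capitals mark GAGGAA on either strand, the core letters bound by PU.1, a transcription factor of macrophages and microglia.

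*C1qb*, chr4:136613512-136613761, minus strand: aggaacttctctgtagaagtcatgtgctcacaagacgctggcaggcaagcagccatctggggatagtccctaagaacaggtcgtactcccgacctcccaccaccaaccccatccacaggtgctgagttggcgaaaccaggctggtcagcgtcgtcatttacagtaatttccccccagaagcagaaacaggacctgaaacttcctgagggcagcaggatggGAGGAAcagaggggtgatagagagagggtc

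*C1qc*, chr4:136620377-136620626, minus strand: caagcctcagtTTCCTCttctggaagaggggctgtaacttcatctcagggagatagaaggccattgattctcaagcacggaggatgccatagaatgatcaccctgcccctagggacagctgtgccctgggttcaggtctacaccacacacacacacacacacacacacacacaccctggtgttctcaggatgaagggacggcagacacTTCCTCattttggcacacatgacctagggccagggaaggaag

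GAGGAA stood 30 to 25 bases before the start of *C1qb*, and its reverse complement stood 239 to 234 and 42 to 37 bases before that of *C1qc*. The letters occurred in 22.9% of the 250-base windows before 21757 protein-coding genes but not in that of *C1qa*, which held TTCNNNGAA (7.7% of windows) 21 to 13 bases before its start. These matches describe the sequence and are not evidence of binding.

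*C1qa* was at 66.8, 67.5, 21.1 and 66.3 CPM in the WT mice and at 37.9, 41.1 and 42.6 CPM in the LC3b-/- mice. Of the WT mice, 3 lay above every LC3b-/- mouse and WT F3 lay below them all. The group means were 55.4 ± 22.9 (SD, n = 4) and 40.6 ± 2.39 CPM (SD, n = 3). The log2 fold change of LC3b-/- over WT was -0.45 (SE 0.38, 95% interval -1.33 to 0.43), with an adjusted p of 0.490 from edgeR.

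*C1qb* stood at 59.6, 56.9, 22.9 and 66.5 CPM in the WT mice and at 42.6, 46.1 and 51.2 CPM in the LC3b-/- mice. Again the LC3b-/- values fell in the gap between WT F3 and the other WT mice. Its log2 fold change was -0.14 (SE 0.33, 95% interval -0.91 to 0.63, adjusted p = 0.824, edgeR). *C1qc* showed 42.9, 45.2, 14.3 and 46.2 CPM in WT and 30.6, 30.5 and 39.1 CPM in LC3b-/-, with a log2 fold change of -0.15 (SE 0.38, adjusted p = 0.833, edgeR). The 3 chains thus had the same order of groups and the same low library.

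Without WT F3 the log2 fold changes became -0.74 for *C1qa*, -0.40 for *C1qb* and -0.44 for *C1qc*, and the LC3b-/- values of all 3 genes lay below those of the remaining WT mice. Without WT F1 they were -0.35, -0.063 and -0.077. The smallest adjusted p of the 3 without WT F3 was 0.138 (edgeR), that of *C1qa*, so that none was called there either. Over all alternatives the adjusted p of *C1qa* lay between 0.138 and 0.968. Without WT M1 the difference of *C1qb* was 0.0042 on the log2 scale, which is the other direction from that with all libraries.

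Within a mouse the C1q chains stood in narrow proportions. The ratio of *C1qc* to *C1qb* was 0.626 to 0.795 in WT and 0.662 to 0.763 in LC3b-/-. The ratio of *C1qa* to *C1qb* was 1.12, 1.19, 0.920 and 0.997 in the WT mice and 0.890, 0.891 and 0.833 in the LC3b-/- mice. The groups did not overlap in this last ratio, although WT F3 and LC3b-/- F3 were close. The ratios were chosen after their values were seen and were not tested.

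The genes whose levels were closest to those of C1q included microglial ones. Over the 7 libraries the genes with the highest Pearson r to *C1qb* among 14911 genes of at least 1 CPM were *C1qc* (0.99), *Tmem119* (0.98), a surface marker of microglia, and *Cst7* (0.97), a cystatin of activated microglia. For *C1qa* they were *Cst7*, *C1qb* and *C1qc* (each 0.96), and for *C1qc* they were *C1qb* (0.99), *Alkbh3* and *Tmem119* (each 0.98), *Alkbh3* being a DNA and RNA demethylase. *Tmem119* was at 16.8, 11.8, 2.55 and 14.1 CPM in the WT mice and at 7.61, 8.75 and 12.6 CPM in the LC3b-/- mice, lowest in WT F3 as the C1q genes were. The whole list of 19 macrophage and microglia markers summed to 489 to 685 CPM in WT and 474 to 910 CPM in LC3b-/-, with 12 higher and 7 lower and none of them at or under 3 counts in every library. Of the list, *Cd68*, *Ms4a7* and *Ctss* had an unadjusted p under 0.05, all higher in LC3b-/-, a direction and p reached by 13.5% of all genes tested. The mean log2 level of the list gave an r of 0.73 with *C1qa* and 0.87 with *C1qb* and *C1qc* (adjusted exact permutation p = 0.311, 0.248 and 0.264, rho 0.46, 0.54 and 0.32), and r was 0.14 to 0.25 without the libraries farthest from the median, so the relation rests on those libraries. The estimates of the C1q chains had the opposite sign, and the part of these cells in the C1q levels was not tested.

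**Figure D1:**
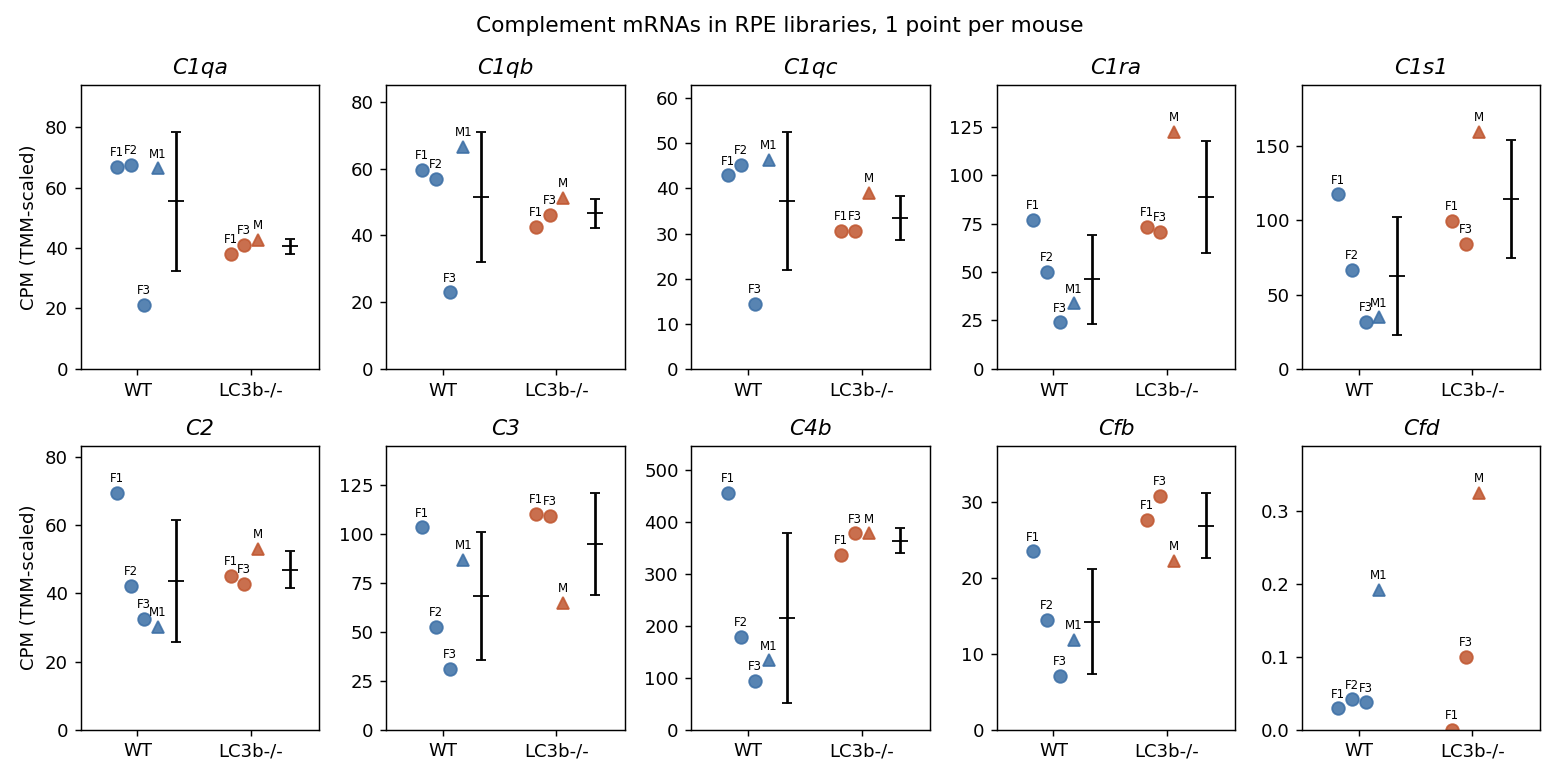
Level of each of the 10 complement genes in CPM (TMM-scaled, linear axes from 0) in the 4 WT and 3 LC3b-/- libraries, 1 point per mouse, circles for females and triangles for males; black bars give mean ± SD except for *Cfd*, which has 0 to 11 counts per library. WT F3 is the lowest point for 8 of the 9 tested genes, and the genotypes overlap in each of the 9.

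*C1ra* and *C1s1* encode the serine proteases C1r and C1s, which ride on C1q and cut C4 and C2. They lie next to each other on chromosome 6 on opposite strands, *C1ra* at chr6:124489364-124500402 on the plus strand and *C1s1* at chr6:124507297-124559389 on the minus strand, a span that includes transcripts longer than the canonical one, which starts at base 124519318. The 250 bases before each canonical start, which for *C1s1* lie inside the span of the gene, are shown because the levels of this pair ranked the 7 libraries in the same order. Capitals mark TTGCNNAA on either strand, letters bound by C/EBP factors, which drive acute phase genes.

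*C1ra*, chr6:124489114-124489363, plus strand: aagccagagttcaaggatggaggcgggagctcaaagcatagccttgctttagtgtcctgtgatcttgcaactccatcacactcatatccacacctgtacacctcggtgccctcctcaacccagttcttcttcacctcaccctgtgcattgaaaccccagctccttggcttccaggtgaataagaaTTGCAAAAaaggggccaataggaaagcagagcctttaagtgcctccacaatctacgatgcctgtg

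*C1s1*, chr6:124519319-124519568, minus strand: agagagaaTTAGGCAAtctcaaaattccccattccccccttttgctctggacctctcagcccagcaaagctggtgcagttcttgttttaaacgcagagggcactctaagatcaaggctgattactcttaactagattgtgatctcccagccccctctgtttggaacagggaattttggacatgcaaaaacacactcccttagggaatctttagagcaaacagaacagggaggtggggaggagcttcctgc

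The letters stood 65 to 58 bases before the start of *C1ra* and, on the other strand, 242 to 235 bases before that of *C1s1*, and were found in 9.34% of all windows. *C3*, which is cleaved at the centre of the cascade, also held them, 26 to 19 bases before its start.

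*C1ra* was at 76.7, 50.2, 24.0 and 33.8 CPM in the WT mice and at 73.5, 70.9 and 122 CPM in the LC3b-/- mice. LC3b-/- M was the highest library, and WT F1 lay between LC3b-/- M and the other LC3b-/- mice, so the groups overlapped through WT F1 alone. The log2 fold change was 0.94 (SE 0.40, 95% interval 0.02 to 1.87), or 1.92-fold, with an unadjusted p of 0.0471 and an adjusted p of 0.203 from edgeR. An exact two-sided permutation test over the 7 libraries gave p = 0.114, where 0.0286 is the smallest it can give.

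*C1s1* was at 117, 66.5, 31.4 and 34.6 CPM in the WT mice and at 99.3, 84.2 and 159 CPM in the LC3b-/- mice. It had the same highest library and the same overlap through WT F1 as *C1ra*. Its log2 fold change was 0.87 (SE 0.48, 95% interval -0.25 to 1.99, adjusted p = 0.307, edgeR). Without WT F1 the log2 fold changes became 1.30 for *C1ra* and 1.37 for *C1s1* (adjusted p = 0.0806 and 0.0860, edgeR, each the smallest over the alternatives). They became 0.71 and 0.63 without WT F3, and 0.64 and 0.55 without LC3b-/- M. In females alone that of *C1ra* was 0.52.

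*C1s1* and *C1ra* were the most closely tied pair by rank. Their Pearson r over the 7 libraries was 0.98 (exact permutation p adjusted over the 36 pairs of members 0.00714) and their Spearman rho was 1.00 (adjusted p = 0.0143), and r was 0.96 without WT F3 and WT M1, the libraries farthest from the median of *C1ra*. With 4 and 3 libraries per genotype no correlation was computed within a genotype alone, and r was 0.98 after the mean of each genotype was taken away, a description without a test. The ratio of *C1s1* to *C1ra* lay between 1.02 and 1.53 in WT and between 1.19 and 1.35 in LC3b-/-.

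Both genes also followed the fibroblast markers, whose mean log2 level gave an r of 0.93 with *C1ra* and 0.95 with *C1s1* (adjusted exact permutation p = 0.0402 for both, over 81 relations of members with marker lists; rho 0.96 for both, adjusted p = 0.113). Without the libraries named above r was 0.68 and 0.83. Other members shared this, with r of 0.91 for *C4b* and 0.86 for *C2* (adjusted exact permutation p = 0.145 for both). With the macrophage and microglia markers r was 0.80 for *C1ra* and 0.71 for *C1s1* (adjusted exact permutation p = 0.148 and 0.248). Their rho was 0.75 (adjusted p = 0.446 for both), and r was 0.84 and 0.80 without WT F3 and WT M1. The 10 fibroblast markers, collagen and other matrix genes among them, summed to 831 to 1943 CPM in WT and 1402 to 2221 CPM in LC3b-/-, with 9 of 10 higher, none called and none at or under 3 counts throughout. Endothelial markers summed to 397 to 1292 CPM in WT and 1447 to 1709 CPM in LC3b-/-, with 10 of 10 higher. The part of these cells in the levels of *C1ra* and *C1s1* was not tested.

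Of single genes, *Cd74*, the invariant chain of MHC class II, and *Plcl2* were among the closest to *C1ra* (r 0.995 and 0.994). Those closest to *C1s1* were *Tbx3*, a transcription factor, *Ntn1*, which encodes the guidance protein netrin, and *Rasd1*, a small G protein (each r 0.994).

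Near-identical copies of both proteases exist in the mouse genome and hardly contributed. *C1rb*, 97.9% identical to *C1ra* over 2432 bases, held at most 7 counts in a library, and so did *C1s2*, 96.0% identical to *C1s1* over 2644 bases. The counts of *C1ra* were 640 to 4135 and those of *C1s1* 839 to 5386. With the copies added, the log2 fold changes were still 0.94 and 0.87. How salmon divided reads between such copies could not be checked from the counts.

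**Figure D2:**
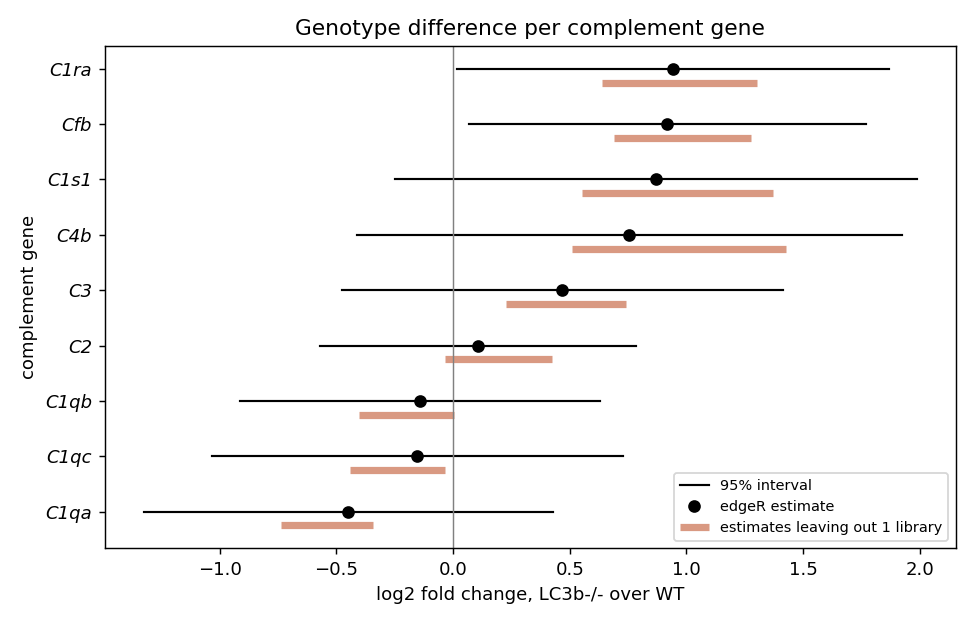
Log2 fold change of LC3b-/- over WT for the 9 complement genes tested (edgeR, black points) with 95% intervals (lines) and the range of estimates when each library is left out in turn (orange bars). The intervals of *C1ra* (0.02 to 1.87) and *Cfb* (0.07 to 1.77) lie above 0 before adjustment, and the bars of *C1qb* and *C2* cross 0.

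*C4b* and *C2* encode the targets of C1s, which together form the C3-cleaving enzyme of the classical pathway. *C4b* lies at chr17:34947354-34962912 and *C2* at chr17:35081578-35117241, both on the minus strand of the MHC region, with *Cfb* between them. Upstream of *C4b*, a symmetric match to the NF-kB motif, which occurs in 7.63% of all windows, stood 148 to 139 bases before the start and is in capitals here. It is shown because *C4b* and *Cfb*, 2 genes of this region whose levels were closely tied across the libraries, both held this motif. *C1ra*, *C1s1* and *C2* were also tied to *C4b* (r 0.93, 0.93 and 0.86), and none of them held a match. A part of the motif in these levels was not tested.

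*C4b*, chr17:34962913-34963162, minus strand: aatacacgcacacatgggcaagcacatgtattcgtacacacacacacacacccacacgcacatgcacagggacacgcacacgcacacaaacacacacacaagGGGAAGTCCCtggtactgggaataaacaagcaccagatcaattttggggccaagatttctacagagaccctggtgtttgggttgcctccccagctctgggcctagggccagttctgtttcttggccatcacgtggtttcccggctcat

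*C4b* had the widest spread of the 9 tested members among WT mice. It was at 455, 179, 94.2 and 133 CPM in the WT mice, the highest 4.83 times the lowest, and at 336, 378 and 378 CPM in the LC3b-/- mice. The LC3b-/- values lay close together, above 3 of the WT mice and below WT F1. The group means were 215 ± 164 (SD, n = 4) and 364 ± 23.8 CPM (SD, n = 3).

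The log2 fold change of *C4b* was 0.76 (SE 0.50, 95% interval -0.41 to 1.93, adjusted p = 0.385, edgeR), and the exact permutation p was 0.143. Without WT F1 it was 1.43 with an adjusted p of 0.0515 (edgeR), the smallest over the alternatives, which ranged up to 0.670. Without WT F3 it was 0.51. Thus 1 WT mouse held the estimate down and another held it up. *C4a*, 96.0% identical to *C4b* over 5382 bases, had 17 to 60 counts per library where *C4b* had 2517 to 15560, and its own log2 fold change was 0.66 (adjusted p = 0.337, edgeR).

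*C2* showed the smallest difference of the members in size. Its levels were 69.5, 42.1, 32.6 and 30.3 CPM in the WT mice and 45.0, 42.8 and 53.0 CPM in the LC3b-/- mice, all 3 of which lay inside the WT range. On the log2 scale the difference was 0.11 (SE 0.29, 95% interval -0.57 to 0.78, adjusted p = 0.852, edgeR), so that a change of 1.72-fold upward or to 0.673 of the WT level lay within the interval. Without WT F1 it was 0.42, without WT F3 it was -0.021, and in females alone it was -0.135.

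*C2* and *C4b* act together but stood in different proportions in the genotypes. *C2* relative to *C4b* was 0.153, 0.236, 0.346 and 0.227 in the WT mice and 0.134, 0.113 and 0.140 in the LC3b-/- mice. The groups did not overlap, and WT F1 was the WT mouse nearest to LC3b-/-. This ratio too was picked out after its values were seen.

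The genes closest to *C4b* were *Inf2*, an actin-regulating formin, *Smad6*, an inhibitor of BMP signalling, and *Aox1*, an aldehyde oxidase (r 0.996, 0.995 and 0.992). For *C2* they were *Prex1*, an exchange factor for Rac, *Zcchc24* and *Gm14964* (r 0.989, 0.985 and 0.984).

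Of 23 other protein-coding genes tested within 200 kb of *C4b*, 15 were higher and 8 lower in LC3b-/-, with a median log2 fold change of 0.17 and none called. An unadjusted p under 0.05 was reached by 6 of them, where 24.1% of all genes tested reached it. These were *Egfl8* (1.40), *Slc44a4* (5.59), *Cfb* (0.92), *Ppt2* (-0.58), *Rnf5* (-0.39) and *Agpat1* (-0.36). *Slc44a4* was at 0.0374 to 0.308 CPM in WT and at 12.5, 19.6 and 1.00 CPM in the LC3b-/- mice. The genes around *C4b* therefore had no common direction.

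*C3*, the protein on which all pathways converge, lies further along chromosome 17 at chr17:57510964-57535155. It was at 103, 52.6, 31.1 and 87.0 CPM in the WT mice and at 111, 109 and 64.7 CPM in the LC3b-/- mice. The female and male LC3b-/- mice lay on opposite sides of WT M1, and the groups overlapped. On the log2 scale *C3* differed by 0.47 (SE 0.41, 95% interval -0.48 to 1.42, adjusted p = 0.506, edgeR). It was 0.23 without WT F3 and 0.74 without WT F1.

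*C3* was the member in which LC3b-/- M was below the LC3b-/- females by the most, and the ratio of *C3* to *C1qb* was 2.59 and 2.37 in those females and 1.26 in the male. An interaction of sex and genotype was not detectable for any of the 9 members (adjusted p 0.998 to 1.00, edgeR), with 1 male per genotype. The closest genes to *C3* were *Il1a*, an inflammatory cytokine, *Gm38392* and *Nyap1* (r 0.963, 0.958 and 0.957).

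*Cfb* encodes factor B, the alternative pathway counterpart of C2, and lies directly beside *C2* at chr17:35074852-35081559. The 250 bases before its start overlap the end of *C2*, so only the surroundings of its pair of NF-kB matches are given, 30 bases each, with the match in capitals. They stood 159 to 150 and 66 to 57 bases before the start.

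*Cfb*, chr17:35081699-35081728, minus strand: gcaaaagctaGGGAATCCCCaggattgtgc

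*Cfb*, chr17:35081606-35081635, minus strand: gctttcacacGGAATTTCCCagttatgtaa

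*Cfb* was at 23.5, 14.5, 7.04 and 11.9 CPM in the WT mice and at 27.7, 30.8 and 22.3 CPM in the LC3b-/- mice. Only WT F1 reached the LC3b-/- range, where it exceeded LC3b-/- M. The means were 14.2 ± 6.91 (SD, n = 4) and 26.9 ± 4.30 CPM (SD, n = 3).

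The log2 fold change of *Cfb* was 0.92 (SE 0.37, 95% interval 0.07 to 1.77), or 1.89-fold, with an unadjusted p of 0.0379 and an adjusted p of 0.185 from edgeR. The exact permutation p was 0.0857. The estimate lay between 0.69 (without WT F3) and 1.28 (without WT F1) when each library was left out, and its adjusted p lay between 0.0662 and 0.405 over all alternatives. In females alone it was 0.96. *Cfb* followed the endothelial markers (r 0.86, adjusted exact permutation p = 0.145, and rho 0.93, adjusted p = 0.182), with r 0.91 without WT F3 and WT M1. This was not particular to *Cfb*. *C1s1*, *C4b* and *C1ra* had r of 0.90, 0.88 and 0.87 with the same markers (adjusted exact permutation p = 0.145, 0.145 and 0.148). Without WT F3 and WT M1 these were 0.47, 0.68 and 0.62. With the ocular surface markers the r of *Cfb* was 0.83 (0.68 without WT F3 and WT M1, adjusted p = 0.148). With the RPE markers it was -0.76 (-0.54 without them, adjusted p = 0.248), both by exact permutation. *C3* had an r of 0.83 with the ocular surface markers as well (adjusted exact permutation p = 0.148), and 0.25 without WT F2 and WT F3. For *C1ra* and *C4b* that r was 0.67 and 0.66 (adjusted exact permutation p = 0.354 for both). The part of these cells in the levels of *Cfb* and the other members was not tested.

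*Cfb* relative to its neighbour *C2* was 0.338, 0.344, 0.216 and 0.393 in the WT mice and 0.614, 0.720 and 0.421 in the LC3b-/- mice, without overlap. Relative to *C1qb* it was 0.179 to 0.394 in WT and 0.436 to 0.667 in LC3b-/-, again without overlap. Both ratios were chosen after their values were seen. A read-through gene, *Gm20547*, shares sequence with *Cfb* and *C2* and held 0 counts in every library, so reads from it, if any, stand under those genes. With all 3 summed the log2 fold change was 0.35.

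The genes closest to *Cfb* were *H2-K1*, an MHC class I heavy chain, *Card10*, an adaptor on the route to NF-kB, and *Anxa3*, an annexin (r 0.994, 0.992 and 0.989). Of the other members, *C4b* was the nearest to it, with r 0.95 (adjusted exact permutation p = 0.0214, rho 0.82 with adjusted p = 0.112) and 0.79 without WT F3 and WT M1.

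*Cfd* encodes factor D, also called adipsin for its high level in fat cells, and lies at chr10:79726668-79728496. It had 1, 1, 1 and 5 counts in the WT mice and 0, 4 and 11 counts in the LC3b-/- mice, at most 0.325 CPM. With nearly every library at or near the floor of 3 counts, no fold change was computed and no difference was detectable at this depth. The defining adipocyte markers *Adipoq*, *Plin1*, *Cidec* and *Lep* were also near 0, with at most 12 counts in any library. The whole list of 9 markers summed to 27.4 to 39.8 CPM in WT and 37.0 to 68.0 CPM in LC3b-/-, of which *Lipe*, which is not confined to fat cells, made up 21.0 to 25.7 CPM. The highest sum was that of LC3b-/- F3, where *Car3* was at 31.5 CPM, against 3.38 and 0.975 CPM in LC3b-/- F1 and M. Of the 4 markers tested, *Car3* (log2 fold change 3.34) and *Fabp4* (0.80) were higher in LC3b-/-. *Lipe* (-0.13) and *Retn* (-0.33) were lower, and none was called.

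Per kilobase of canonical transcript, which allows levels of different genes to be set side by side, *C1qa* had the highest mean level in WT (51.0 ± 21.1 CPM per kb, SD, n = 4). *C4b* followed at 39.6 ± 30.1, then *C1s1* at 21.4, *C1qb* at 20.3, *C1qc* at 20.1, *C2* at 16.4, *C1ra* at 15.5 and *C3* at 13.3 CPM per kb. The spreads of neighbours in this order overlapped down to *C3*. *Cfb* had a lower mean of 4.25 CPM per kb (2.10 to 7.02), although its highest library lay above the lowest of *C3* (6.03). *Cfd* stood at 0.080.

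In LC3b-/- the order was led by *C4b* at 66.9 ± 4.38 CPM per kb (SD, n = 3), whose lowest library (61.9) lay above the highest of *C1s1* (54.6), which came next with a mean of 39.2. *C1qa* stood at 37.3, *C1ra* at 29.8, *C3* and *C1qb* at 18.4, *C1qc* at 18.04 and *C2* at 17.7 CPM per kb. The lowest library of *C1ra* (23.8) lay above the highest of *C3* (21.4), and the other neighbours from *C1s1* to *C2* overlapped. *Cfb* at 8.05 CPM per kb (6.66 to 9.20) lay below the lowest library of *C2* (16.1). Per length, the messages for C4 and for the C1q chain A were thus among the 3 most abundant of the 10 members in both genotypes, and that for factor D was the scarcest. The position of *C1qa* above *C1qb* rests on its shorter transcript, since on the CPM scale the chains were close.

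Of 36 pairs of members, 11 had an adjusted exact permutation p under 0.05 for r, and 1 of them, *C1ra* with *C1s1*, for rho as well. The C1q chains were tied to each other (r 0.96 to 0.99, and 0.89 to 0.95 without the libraries farthest from the median). Among *C1ra*, *C1s1*, *C4b* and *Cfb* the adjusted p was under 0.05 in all but the pair of *C1s1* and *Cfb* (r 0.84, adjusted exact permutation p = 0.0577). Without the libraries farthest from the median, r among these 4 genes was 0.33 to 0.96, lowest for *Cfb* with *C1s1* (0.33) and with *C1ra* (0.41). The other pairs under 0.05 were *C2* with *C1s1* (r 0.88) and with *C4b* (0.86), and *C3* with *Cfb* (0.84).

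Between the C1q chains and these 4 genes r was 0.25 to 0.50. Leaving out the libraries farthest from the median, WT F3 among them each time, brought it to between -0.80 and 0.0036. After the mean of each genotype was taken away, r over all 7 libraries was 0.50 to 0.78 between them and 0.99 among the C1q chains, again as a description. The low level of WT F3 in both groups was shared by both groups, while WT M1 was among the highest WT libraries for C1q and among the lowest for *C1ra*, *C1s1* and *C4b*. The plot of the pattern by library shows this beside the marker lists.

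**Figure D3:**
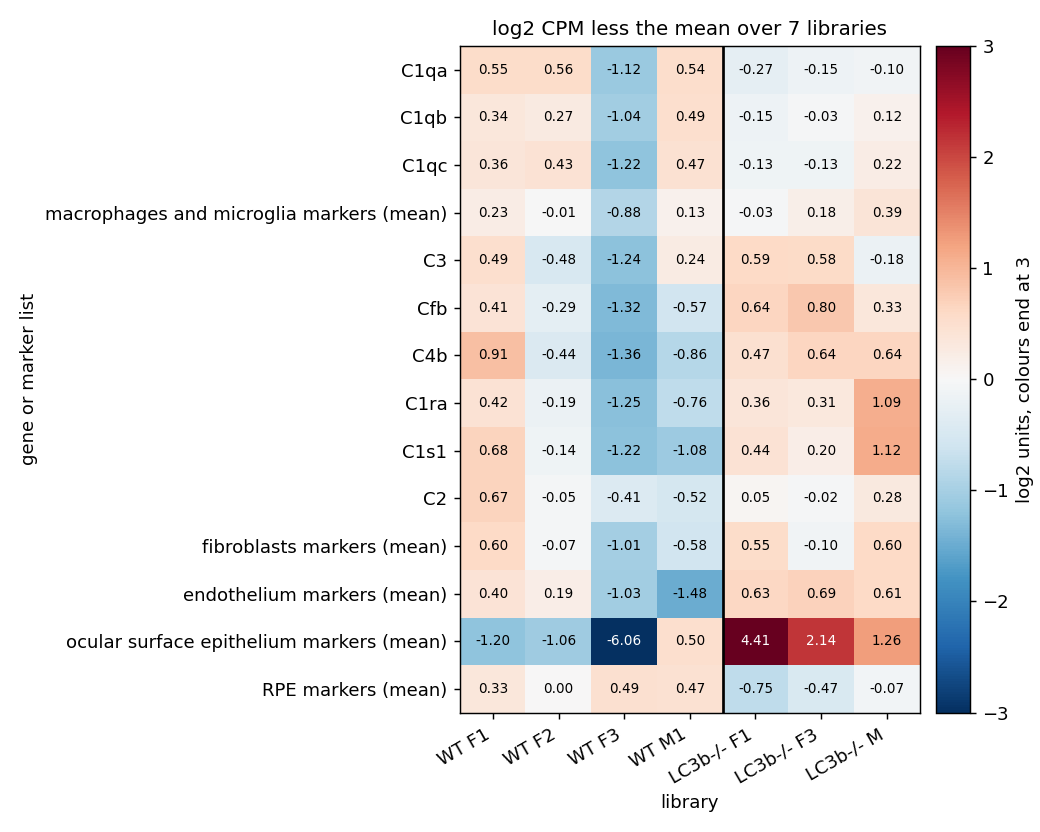
Log2 CPM of each tested complement gene, and mean log2 CPM of 5 marker lists, less the mean over the 7 libraries (numbers in cells, red above and blue below the mean; the line parts WT from LC3b-/-). WT F3 is blue for all 9 complement genes; WT M1 is at 0.47 to 0.54 for the C1q chains and at -1.08 to -0.76 for *C1ra*, *C1s1* and *C4b*.

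The other members were also set against *C1qb* within each library. *C1ra* relative to *C1qb* was 1.29, 0.883, 1.05 and 0.509 in the WT mice and 1.72, 1.54 and 2.39 in the LC3b-/- mice, without overlap. For *C1s1* and *C4b* the genotypes overlapped through WT F1 alone, for *C3* through LC3b-/- M alone, and the ratios of *C2* in LC3b-/- lay within the WT range. For *C4b* the ratio was 7.64 in WT F1 and 2.002 to 4.11 in the other WT mice, against 7.38 to 8.18 in LC3b-/-. These ratios, like the others, are descriptions chosen with the values known.

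**Figure D4:**
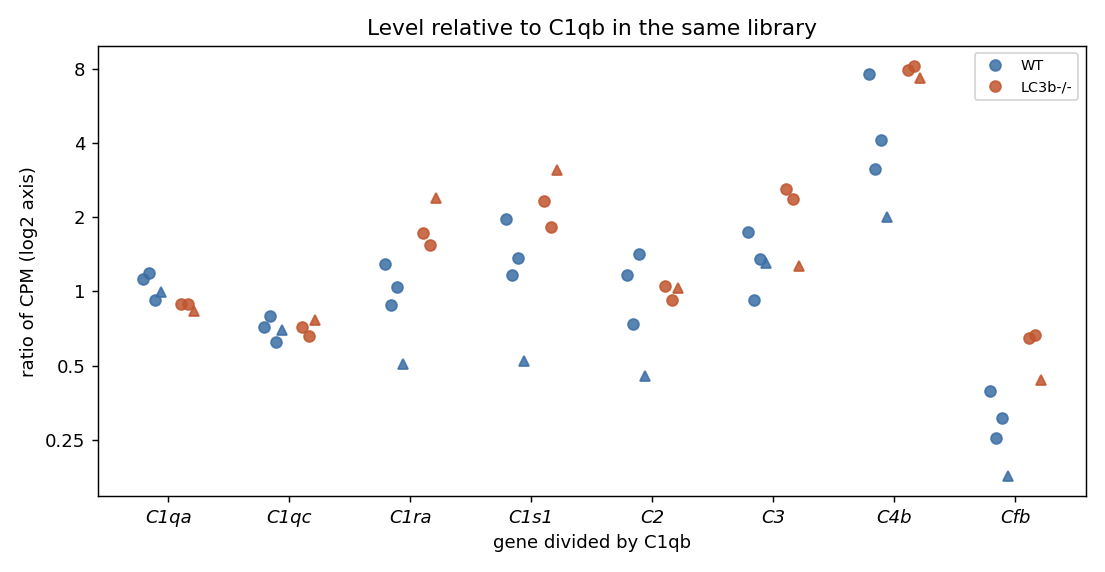
CPM of 8 complement genes divided by that of *C1qb* in the same library (log2 axis), WT in blue and LC3b-/- in orange, circles for females and triangles for males. LC3b-/- lies above WT without overlap for *C1ra* (1.54 to 2.39 against 0.509 to 1.29) and *Cfb* (0.436 to 0.667 against 0.179 to 0.394), and below it for *C1qa* (0.833 to 0.891 against 0.920 to 1.19).

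Counted together, 6 of the 9 members tested were higher (51.2% of all genes tested were) and 3 lower in LC3b-/-, with a median log2 fold change of 0.47 against 0.01 over all genes tested. None was called, where 0.235% of all genes were, and DESeq2 and limma's voom called none either. An unadjusted p under 0.05 was reached by 2 of the 9, *C1ra* and *Cfb*, where 24.1% of all genes tested reached it; both were higher, a direction and p reached by 13.5% of all genes. The groups did not overlap for 0 of the 9, where they did not for 22.3% of all genes. The counts of members called, of members with such a p in either direction and of members without overlap did not exceed those of genes in general.

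The counts turned on single WT mice. Without WT F1 the unadjusted p was under 0.05 for 5 members, *C1ra*, *C1s1*, *C2*, *C4b* and *Cfb*, all higher and all without overlap, where 28.6% of all genes had such a p and 35.7% did not overlap. Without WT F3 it was under 0.05 for 4 members, *C1qa*, *C1qb* and *C1qc*, which were lower, and *Cfb*, which was higher, where 17.5% of all genes had such a p. The groups then did not overlap for the 3 C1q chains, and for 24.1% of all genes. None of these members was called in either case.

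Other genes of the complement system, 47 listed and 29 tested, were described in the same way. Of these, 21 were higher and 8 lower in LC3b-/-, 0 were called by edgeR (0.235% of all genes), 7 had an unadjusted p under 0.05, all higher (13.5%), and 6 did not overlap (22.3%). Their median log2 fold change was 0.47, as for the members. The 5 with the smallest p were *Itgam* (log2 fold change 2.31), *Itgax* (1.85) and *Itgb2* (1.06), which encode the chains of complement receptors 3 and 4 on phagocytes, *Masp2* (2.45, at most 1.18 CPM in any library), the C4-cutting protease of the lectin pathway, and *Cd55* (1.24), a membrane inhibitor of both C3-cleaving enzymes. Their adjusted p values were 0.0945 to 0.150 (edgeR).

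*Itgam* was at 17.9, 9.57, 5.54 and 8.11 CPM in the WT mice and at 60.0, 74.1 and 19.3 CPM in the LC3b-/- mice, without overlap. It is the partner that lets phagocytes bind surfaces coated with a C3 fragment, and WT F3 was its lowest library as it was for most members. Neutrophil markers, of cells that also carry this receptor, summed to 1.68 to 5.71 CPM in WT and 3.19 to 9.79 CPM in LC3b-/-. The highest sum was that of LC3b-/- F1, of which *S100a9* alone made up 7.73 CPM. Of the 8 markers 3 could be tested, 2 higher and 1 lower, with a median log2 fold change of 0.0034 and 0 at an unadjusted p under 0.05. The part of these cells in the level of *Itgam* was not tested.

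The soluble and membrane regulators did not share a direction. *Clu*, for clusterin, a chaperone that also blocks the terminal complex, had a log2 fold change of -0.71 (adjusted p = 0.231, edgeR), and *Serping1*, the inhibitor of C1r and C1s, one of 0.49 (adjusted p = 0.367, edgeR). Of the membrane regulators, *Cr1l* had one of 0.47 (adjusted p = 0.155) and *Cd46* one of -0.31 (adjusted p = 0.732), both by edgeR. Of 20 regulators and receptors tested, 13 were higher and 7 lower. An unadjusted p under 0.05 was reached by 6 of the 20, all higher, a direction and p reached by 13.5% of all genes tested. Of the 7 terminal components, which build the membrane pore, 2 could be tested, *C7* (2.40, adjusted p = 0.258) and *C8g* (-0.53, adjusted p = 0.440), both by edgeR. *C7* was near the floor, with 3, 3, 3 and 24 counts in the WT mice and 18, 8 and 136 in the LC3b-/- mice. The groups overlapped, and most of its LC3b-/- counts came from LC3b-/- M. *C8a*, *C8b* and *C9* had at most 3 counts in every library.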

How the data were processed

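RPE RNA of 4 WT and 3 LC3b-/- mice was measured, 1 library per mouse. The authors counted reads against GENCODE vM26 transcripts (GRCm39) with Salmon 1.9.0, summed them to genes with tximeta 1.16.1 and deposited estimated counts per gene as whole numbers; trimming, Salmon's options and the rounding are not given in the sources used here. All sample columns were used (0 left out). In edgeR 4.0.16 (R 4.3.3) genes were filtered with filterByExpr, libraries scaled by TMM, and the genotypes compared by the quasi-likelihood test with genotype as the only term; p-values of the 16990 genes were adjusted by the Benjamini-Hochberg method. Differential expression took an adjusted p below 0.05 and a fold change of 1.5 or more. The study's own design used DESeq2, which is given as an alternative. Intervals use the fit's degrees of freedom, and ± is the SD between mice. Permutation tests were exact, on log2 CPM with a prior count of 2: over 35 groupings of the libraries for a difference, and over all orders of the 7 libraries for a correlation.

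The members, the lists of complement genes and markers, and the tests were chosen with earlier results of these data known. Named genes were the members, the 5 other complement genes with the smallest p, near-identical or overlapping genes, the 3 genes of highest Pearson r to each member (at least 1 CPM), neighbours within 200 kb of *C4b* and *Map1lc3b*; regulators and terminal genes named beside these, and the ratios, were picked after their values were seen. Of 52740 identifiers, 51721 matched GENCODE vM39, whose genes gave the positions and whose canonical transcripts gave the lengths and the 250 bases before each start in GRCm39. The NF-kB motif was searched in its usual degenerate form; all motifs, among them the interferon response element ISRE (3.32% of windows) and TATAAA (11.9%), which no member held, were searched on both strands. BLAST 2.17.0 was used to look for copies (100 aligned bases or more at 95% identity or above). No replicates were near-identical: within-group pairs differed by 66.4 to 219 times the counting error. Alternatives were DESeq2 1.42.0, limma 3.58.1 voom with sample quality weights, other scalings, filters and fold thresholds, sex as a covariate, females only, mouse name as a block, summing copies and leaving out each library. The code was tested on simulated data. The floor of 3 counts covers counting error only. Proteins were not analysed here, and 2 genes that these rules would name are not reported here.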

Additional observations from a re-analysis of the deposited data

Results flagged for a closer look

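In 2 of 18 groups of WT libraries examined (9 members and 9 marker lists), 1 library lay far from the others. For *C1qa*, WT F3 at 21.1 CPM stood below the other WT mice at 66.3 to 67.5 CPM, and its gap to the nearest of them was 0.975 of the whole WT range. For *C1qc*, WT F3 at 14.3 CPM stood below 42.9 to 46.2 CPM, with a gap of 0.894 of the range. Both gaps passed Dixon's critical value for 4 samples at the 95% level; chance alone flags about 1 in 20 groups. In *C1qb*, the chain encoded beside them, WT F3 was again lowest, with a gap of 0.779 of the range, which did not pass it. Of the 19 macrophage and microglia markers, 13 were also lowest in WT F3, *Tmem119* (2.55 CPM) and *Cx3cr1* (2.88 CPM) among them, and 6 were not, among them *Csf1r*, which at 301 CPM there was second highest of the 7 libraries. Neither the cause of the low C1q level in this library nor the part of these cells in it was tested.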

How the results depend on the processing

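No complement member was called under any alternative. Of 148 alternative estimates of the 9 members, 138 kept their direction and 10 turned, all of *C1qa*, *C1qb*, *C1qc* or *C2*. With voom the log2 fold changes of *C1qb* and *C1qc* were 0.19 and 0.20. In females alone that of *C2* was -0.135. Leaving out each library gave -0.40 to 0.0042 for *C1qb* and -0.036 to 0.42 for *C2*. The mouse names F1 and F3 occur in both genotypes, but the labels do not tie these mice, and the deviations of such pairs correlated at 0.15 and 0.24. With the name as a replicate block, the log2 fold changes were 0.070 for *C1qa*, 0.26 for *C1qb*, 0.30 for *C1qc* and -0.12 for *C2*, 0 members reached an unadjusted p under 0.05, and 0 genes were called in all.

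The 2 members at an unadjusted p under 0.05 became 4 with voom (30.7% of all genes), 1 with sex as a covariate (28.1%), 0 in females alone (21.6%) and 0 to 5 with a library left out (13.8% to 28.6%). Non-overlapping members, 0 in the full set, numbered 2 in females alone (42.6% of all genes) and 0 to 5 with a library left out (24.1% to 39.3%). The 40 genes called in all became 1831 with DESeq2 (1259 higher), which was given all 28835 genes with a count and applied its own filter afterwards. They became 124 with voom and sample quality weights (80 higher), 78 without the filter on low counts, 197 with sex as a covariate (70 higher) and 96 in females alone. With a library left out they were 11 (without LC3b-/- F3) to 485 (without LC3b-/- M, 339 higher), with 183 higher of 215 without WT F1. Of the 40, 21 were higher, and with library size alone 31 of 49. The causes of these shifts were not tested. For *Cfd*, with 0 to 11 counts per library, depth was the limit; the other members had at least 188 counts in every library.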
